A study of Mus musculus with 6 samples.

Results

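The genes described are interleukin 6 (Il6), its signal-transducing receptor chain gp130 (Il6st), the transcription factor Stat3, and the colony stimulating factors Csf2 and Csf3. They were taken by gene symbol from a PCR array of wound healing genes and make up 5 of its 84 wound healing genes. Primary dermal fibroblasts from neonatal C57BL/6 mice, at passages 3 to 5, were treated with mitomycin C, which stops cell division, and the cell layer was scratched. The control group received no further agent and the DS group received 2,4-dermatan sulfate, a sulfated polysaccharide from the ascidian *Styela plicata*, with 3 cultures and 1 array of each. DS was given at 50 µg/mL for 48 h by the methods, whereas the sample labels name 24 h and 72 h and a series of concentrations, so the exposure behind each array is uncertain.

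Il6 is a secreted cytokine that binds its own receptor chain and then gp130, a chain shared by the whole Il6 cytokine family. Kinases of the JAK family bound to gp130 phosphorylate Stat3, which moves to the nucleus and binds DNA, and gp130 also feeds the Ras-MAPK and PI3K branches. Csf2 and Csf3 act on myeloid cells, Csf2 on macrophages and granulocytes and Csf3 mainly on neutrophils, and fibroblasts are a known source of both and of Il6 after injury.

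Each assay gave a CT, the PCR cycle at which fluorescence crossed a fixed threshold. The more template a well holds, the earlier its CT, and 1 cycle is a 2-fold difference at full amplification efficiency. A CT over 36, or none, was counted as not detected and set to 36. Levels are given as −ΔCT, the mean CT of 3 normalizers (Hsp90ab1, Ccl7, Egfr) of the same array minus the CT of the gene, which is a log2 scale. Where every array of a group was over the cutoff, the log2 fold change of DS over control is a bound. Its standard error (SE) treats the cutoff as if it had been measured. The bound takes a missing CT to mean less template than a CT of 36 would, which was not tested. Actb, B2m, Gapdh and Gusb, which all cells use, also gave no CT in the control arrays, so bounds against those arrays are uncertain. Efficiencies differ between assays, so the order of CT across genes is an order of assays and not of transcript numbers.

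Several control measurements differed between the groups, and every result below rests on the same 6 arrays. The array carries the same reverse transcription control assay in 3 wells, and these wells did not give equal CT within an array. In the control arrays only the second well came under the cutoff, at 22.7, 21.7 and 23.0 cycles, and in the DS arrays only the first, at 29.6, 30.2 and 29.0, and the third, at 32.8, 31.6 and 32.0. No well of the positive PCR control gave a CT. Among the housekeeping genes Gapdh was without a CT throughout, and Gusb had a single one, at 41.1, in DS array 3. Actb had no CT in a control array and a mean of 12.2 ± 0.768 (SD, n = 3) in DS, and B2m had none in a control array and 21.3 ± 1.21 in DS. In a separate quality control run of the RNA, the paper reports that Actb was detected, with variation that it calls non-statistical. Of 89 gene assays, 26, 25 and 25 came at or under the cutoff in the control arrays, against 60, 60 and 58 in the DS arrays. The part of these differences in the results for the 5 genes was not tested. Every fold change below takes each well to hold the same assay in the control and the DS arrays, which was not tested either and which the values of the reverse transcription control wells leave uncertain.

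**Figure D1:**
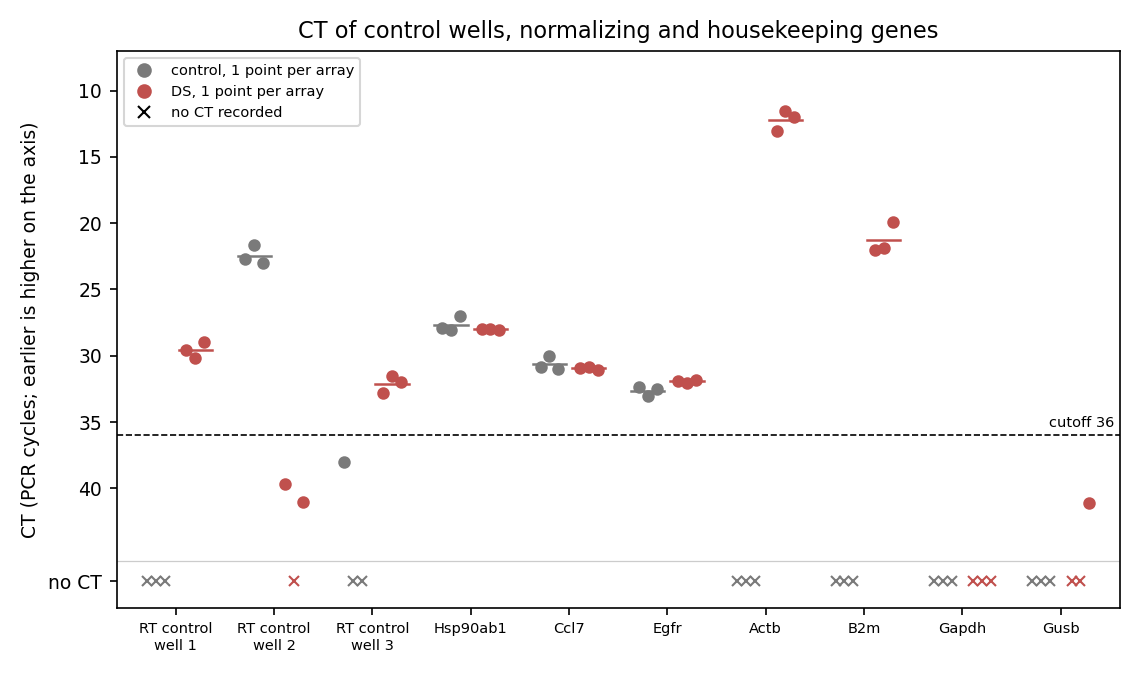
CT in PCR cycles of the 3 reverse transcription (RT) control wells and of normalizing and housekeeping genes, with 1 point per array, short lines for means where all 3 arrays gave a CT, crosses for no CT and a dashed line at the cutoff of 36. The RT control wells under the cutoff are not the same in control and DS arrays, and Actb and B2m have a CT in DS arrays only.

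The normalizing genes were picked by the methods for stable CT in these same arrays, so their values are a description and not a check. Hsp90ab1 had a mean CT of 27.6 ± 0.563 in control and 28.0 ± 0.0451 in DS (SD, n = 3), and Ccl7 had 30.6 and 30.9. Egfr had 32.6 in control and 31.9 in DS, and its groups did not overlap.

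The 100 bases before the annotated start of Il6, Il6st, Stat3 and Csf2 are shown because 3 of these genes were detected in DS arrays only while Il6 was not detected in either group. They come from RefSeq on build GRCm38.p6, are written 5′ to 3′ on the strand of the gene, and 4 of the 5 genes were matched (not Csf3). Capitals mark a match to an NF-kB motif. Il6 lies on the plus strand at chr5:30013014-30013113, Il6st on the plus strand at chr13:112463970-112464069, Stat3 on the minus strand at chr11:100939541-100939640 and Csf2 on the minus strand at chr11:54249900-54249999.
Il6: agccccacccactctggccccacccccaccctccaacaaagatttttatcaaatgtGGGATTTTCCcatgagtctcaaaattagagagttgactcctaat
Il6st: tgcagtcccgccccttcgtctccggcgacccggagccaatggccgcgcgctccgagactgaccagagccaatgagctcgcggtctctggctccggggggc
Stat3: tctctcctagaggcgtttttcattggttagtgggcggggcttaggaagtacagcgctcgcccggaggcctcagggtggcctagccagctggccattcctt
Csf2: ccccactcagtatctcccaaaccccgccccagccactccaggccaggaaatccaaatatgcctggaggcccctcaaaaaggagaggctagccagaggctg

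Matches to 4 motifs were sought on both strands of the 250 bases before each start. The STAT motif TTCNNNGAA was found in none of the 4 sequences, and 7.02% of 32851 mouse promoters hold it. The NF-kB motif was found in Il6 alone, as GGGATTTTCC at bases −44 to −35, and 7.25% of promoters hold it. The AP-1 motif TGANTCA was also found in Il6 alone, as TGAGTCA at bases −249 to −243 and so outside the stretch shown, and 6.75% of promoters hold it. The TATA box letters TATAAA were in none of the 4, against 12.4% of promoters. The 250 bases of Il6 were 42.8% G and C, below the median of 52.4% over all promoters, while Csf2 with 55.2%, Stat3 with 60.8% and Il6st with 66.0% were above it. A match describes the letters only, and its absence says nothing of the factor.

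Il6, the ligand, gave 1 CT in 6 arrays, 38.61 in control array 1, and none in control arrays 2 and 3 or in any DS array. That single CT is over the cutoff, so Il6 was not detected in either group, no fold change is given, and it was not among the 64 genes tested. The authors' group ratio, 2 to the power of the mean −ΔCT, was 0.0183 for control and 0.0185 for DS, which is what a CT of 36 gives with the geometric mean of the normalizing CT. A difference in Il6 below the level of a CT of 36 was not detectable at this cutoff.

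Il6st, the receptor chain that passes the Il6 signal into the cell, gave a CT of 43.45 in control array 1 and none in control arrays 2 and 3, while the DS arrays gave 29.14, 30.00 and 29.36. The 3 DS arrays lay under the cutoff and the 3 control arrays over it, with no overlap. In −ΔCT the DS arrays were at 1.14, 0.29 and 0.94, against a limit of −5.63, −5.65 and −5.82 set by the cutoff in the control arrays. The log2 fold change was at least 6.49 (SE 0.33, limma adjusted p = 1.11e-07), or at least 89.9-fold. For Il6st, as for Stat3, Csf3 and Csf2, the control values are the constant cutoff and the gene was tested only because of its DS arrays, so the SE and the limma adjusted p describe the DS values against the cutoff and add no support of their own. An exact two-sided permutation test over the 6 arrays gave p = 0.1, the smallest that 3 against 3 arrays allow, for Il6st and equally for Stat3, Csf3 and Csf2. In cultures measured as a whole, fewer cells holding a transcript and less of it per cell cannot be told apart.

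Stat3, the transcription factor that gp130 activates, gave no CT in the 3 control arrays and 20.64, 18.61 and 19.37 in the DS arrays. It had the earliest CT of the 5 genes in each DS array, and the groups did not overlap. The DS −ΔCT values were 9.64, 11.68 and 10.93, and the log2 fold change was at least 16.45 (SE 0.50, limma adjusted p = 5.62e-09). On the linear scale the DS arrays had ratios of 796, 3289 and 1951, a mean of 2012 ± 1247 (SD, n = 3), so that the spread within the group was wide beside the mean. The authors' group ratio of 1667 in DS averages −ΔCT before it is made linear and so is not the same quantity as the mean of 2012. The methods' own test on the linear ratios, run without adjustment, called Stat3 at the threshold of 0.05. With Benjamini-Hochberg adjustment over the 64 genes that limma also tested, the adjusted p was 0.0709 and the call was lost.

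Csf3, the granulocyte colony stimulating factor, gave no CT in the 3 control arrays and 30.56, 31.18 and 30.81 in the DS arrays. All 3 DS arrays were more than 4 cycles before the cutoff. Their −ΔCT was −0.28, −0.89 and −0.51, and the log2 fold change was at least 5.14 (SE 0.30, limma adjusted p = 3.01e-07), or at least 35.3-fold. The ratio averaged 0.688 in DS.

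Csf2, the granulocyte and macrophage colony stimulating factor, gave no CT in the 3 control arrays and 33.04, 32.85 and 33.09 in the DS arrays. These were the latest CT among the 4 detected genes, and they differed from each other by less than those of the other 3. The −ΔCT was −2.76, −2.56 and −2.79, and the log2 fold change was at least 3.00 (SE 0.28, limma adjusted p = 7.77e-06), or at least 7.98-fold. The DS ratio averaged 0.154.

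**Figure D2:**
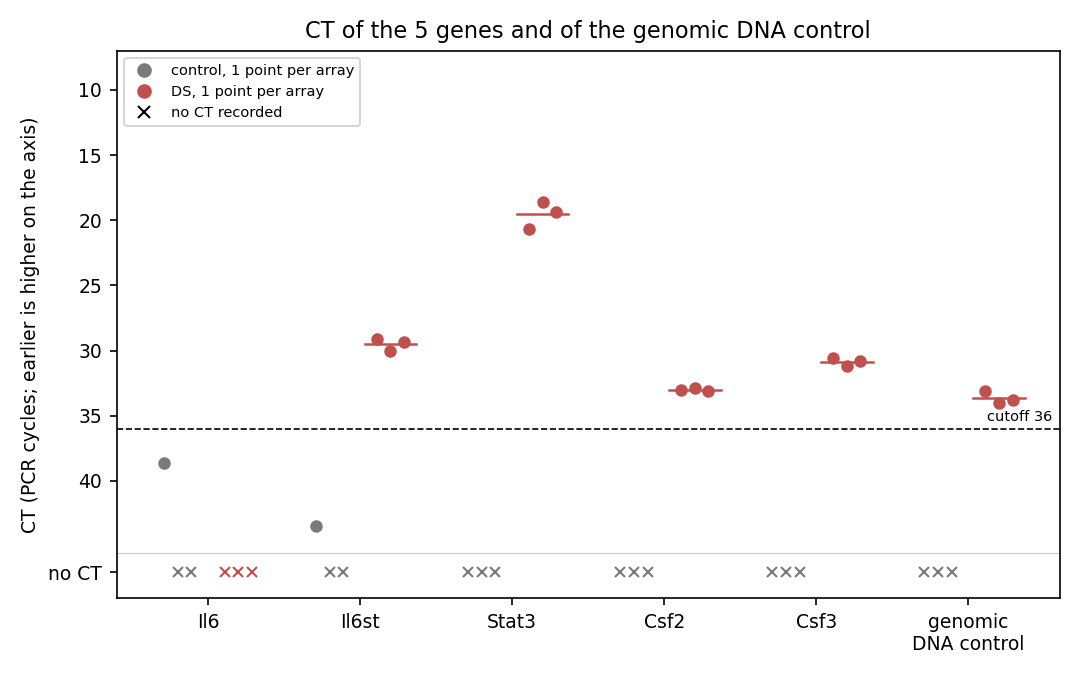
CT in PCR cycles of Il6, Il6st, Stat3, Csf2 and Csf3 and of the genomic DNA control, with 1 point per array, short lines for the mean of the 3 DS arrays, crosses for no CT and a dashed line at the cutoff of 36. Il6st, Stat3, Csf2 and Csf3 are under the cutoff in the 3 DS arrays alone, Il6 in no array, and the genomic DNA control (33.6 in DS) lies next to Csf2 (33.0).

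The genomic DNA control, an assay that amplifies DNA and not transcripts, had no CT in the control arrays and 33.08, 34.02 and 33.78 in the DS arrays. It came 0.04, 1.17 and 0.69 cycles after Csf2 in DS arrays 1, 2 and 3, a mean gap of 0.633 ± 0.567 cycles (SD, n = 3). The RNA had been treated with DNase, and the paper reports no genomic DNA contamination in a separate quality control run of the RNA. From the CT alone, Csf2 transcript and genomic DNA cannot be told apart in these arrays. The gap was larger for Csf3, at 2.52, 2.84 and 2.97 cycles, and for Il6st, at 3.94, 4.02 and 4.42 cycles. For Stat3 it was 12.44, 15.41 and 14.41 cycles. How much DNA template each gene assay can amplify was not tested.

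The 4 detected genes kept 1 order of CT in each DS array, from Stat3 through Il6st and Csf3 to Csf2. Il6st came 8.50, 11.39 and 9.99 cycles after Stat3. Csf3 followed Il6st by 1.42, 1.18 and 1.45 cycles, a mean of 1.35 ± 0.148 (SD, n = 3), and Csf2 followed Csf3 by 2.48, 1.67 and 2.28 cycles, a mean of 2.14 ± 0.422. Each step was larger than its spread over the 3 arrays. The replicates did not move alike: DS array 1 had the latest Stat3 but the earliest Il6st and Csf3, and DS array 2 had the earliest Stat3 and Csf2 but the latest Il6st and Csf3.

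Among the 55 genes detected in each of the 3 DS arrays, Stat3 had the 8th earliest mean CT, Il6st ranked 26, Csf3 ranked 37 and Csf2 ranked 48. Their spread ran the other way. The SD of CT over the DS arrays was 0.127 cycles for Csf2, 0.312 for Csf3, 0.447 for Il6st and 1.03 for Stat3, against a median of 0.621 over the 55 genes. Csf2 thus had the third smallest SD, and Stat3 ranked 45 from the smallest.

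Of the 5 genes, 4 were detected in all 3 DS arrays and no control array, a pattern shared by 37 of the 84 wound healing genes (44.0%), or 57.8% of the 64 tested. The 4 were tested and each was called higher in DS, where 71.9% of the 64 tested genes were called higher and 20.3% lower. These genes entered the test only through the DS arrays, the group in which they are high, so the count of 4 carries no weight of its own. The median log2 fold change was 5.82 over the 4 genes and 4.40 over the 64. Relative to that median, Stat3 was 12.05 higher, Il6st 2.09 higher and Csf3 0.74 higher, while Csf2 was at −1.40. These distances are between bounds and depend on the cutoff and on the genes tested. At a cutoff of 40 the distance was 14.38 for Stat3, 4.42 for Il6st, 3.07 for Csf3 and 0.93 for Csf2, and with all 84 genes tested it was 14.44, 4.48, 3.13 and 0.98, so Csf2 was then above the median. From the largest log2 fold change downwards Stat3 ranked 7 of 64, Il6st 24, Csf3 31 and Csf2 38. Most of the ranked values are bounds, and the ranks at a cutoff of 40 were 5, 22, 29 and 36, while at a cutoff of 35 Csf2 ranked 41.

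**Figure D3:**
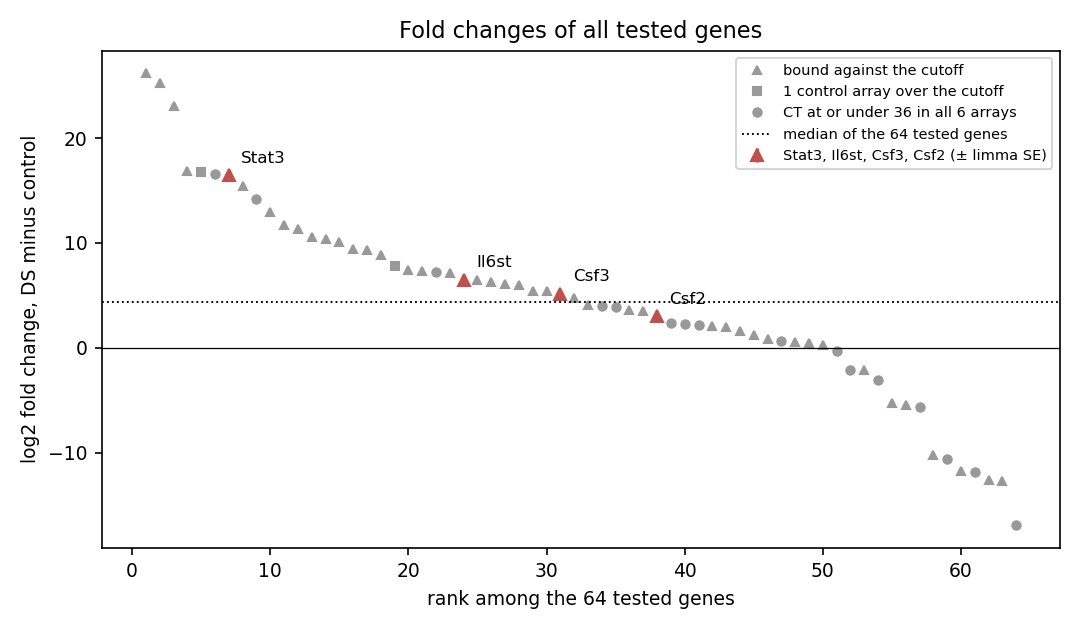
Log2 fold change of DS over control for the 64 tested genes in order of size, with Stat3, Il6st, Csf3 and Csf2 in red (bars, limma SE, smaller than the symbol for most), triangles for bounds against the cutoff in a whole group and a dotted line at the median of 4.40. Stat3, Il6st and Csf3 lie above the median and Csf2 below it (above it at a cutoff of 40 or with all 84 genes tested), and with the 5 housekeeping genes as normalizers, 4 of them set to the cutoff in control arrays, the values of Il6st, Csf3 and Csf2 are below 0.

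The values of the 4 genes depended on the normalizer. Of the 5 housekeeping genes, Actb, B2m, Gapdh and Gusb had no CT in a control array and were set to 36 there, as were Stat3, Il6st, Csf3 and Csf2. With the mean of these 5 as normalizer Stat3 was at 8.83, Il6st at −1.13, Csf3 at −2.48 and Csf2 at −4.63. Neither the genes nor 4 of the 5 normalizers were measured in the control arrays, so these values are not bounds and no direction can be read from them. The same choice moved the median of the 64 genes from 4.40 to −3.23 and the share of higher among all called genes from 78.0% to 30.4%. With the median CT of the 17 assays detected in all 6 arrays, the share was 83.9% and the median 7.35, and Stat3 was at 19.40, Il6st at 9.44, Csf3 at 8.09 and Csf2 at 5.95. A normalizer shifts all genes of an array together, so at the cutoff of 36 the distances from the median of the 64 genes and the ranks were the same under these choices.

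**Figure D4:**
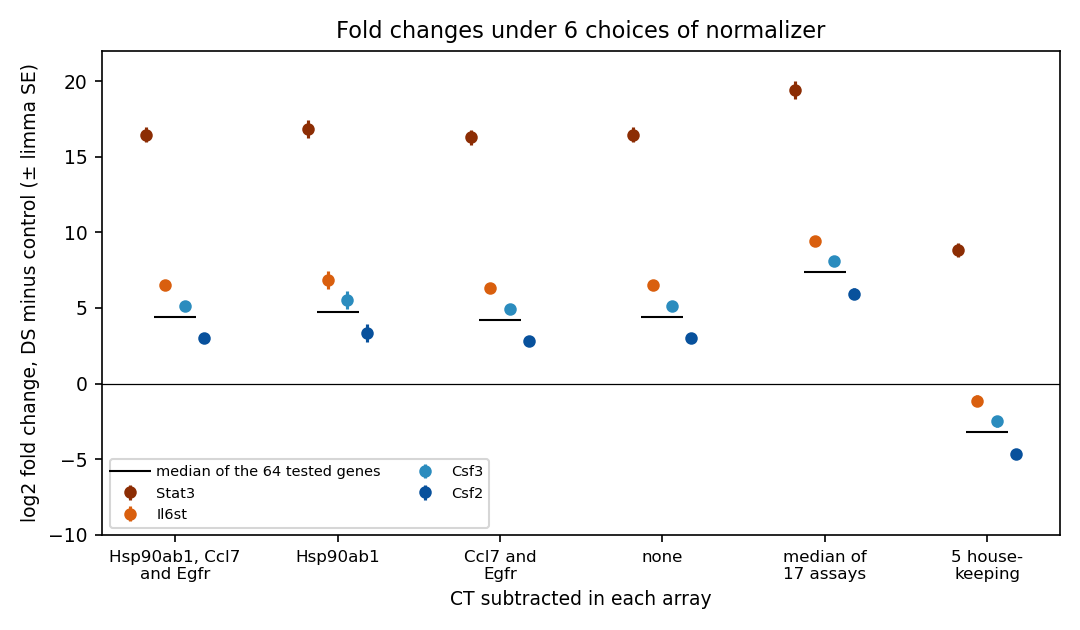
Log2 fold change of DS over control (points, with bars for the limma SE) for Stat3, Il6st, Csf3 and Csf2 under 6 choices of what is subtracted from the CT of each array, with a black dash at the median of the 64 tested genes. The 4 genes are above 0 under the other 5 choices, and with the 5 housekeeping genes, of which 4 were set to the cutoff in the control arrays, no direction can be read for any of the 4 (Stat3 8.83, Il6st −1.13, Csf3 −2.48, Csf2 −4.63).

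The genes with the most similar CT over the 6 arrays were found by the mean absolute difference of CT, with values over the cutoff set to 36. For 2 genes without a detected control value the control arrays add a difference of 0 by construction, so this measure favours genes detected in DS arrays alone. For Stat3 they were Cxcl1 at 0.21 cycles, Mapk3 at 0.488 and Itga2 at 0.81. For Il6st they included Col3a1 at 0.277 and Ctgf at 0.44. The nearest to Csf3 were Hbegf at 0.275, Ctnnb1 at 0.353 and Cxcl11 at 0.44, and to Csf2 Fga at 0.365, Plg at 0.37 and Col5a3 at 0.465. No gene of the 5 was among the 3 nearest of another. Over the 3 DS arrays alone Cxcl1 was again nearest to Stat3, at 0.42, but Ctsk was nearest to Il6st at 0.20, Ccl7 to Csf3 at 0.317 and Col4a3 to Csf2 at 0.54.

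Other genes of the pathway on the array were described in 5 lists holding 22 genes, of which 18 were tested, with a median log2 fold change of 6.70 beside 4.40 over the 64. Of the 18, 13 were called higher and 4 lower, shares close to the 71.9% and 20.3% of all tested genes. Among 4 other ligands that signal through JAK and STAT proteins, Il2 and Il10 were, like Il6, not detected in either group. Interferon gamma (Ifng) was detected in all 6 arrays and was higher in DS by 7.19 (SE 0.57), and Il4 was lower by a bound of −2.13 (SE 0.28). For Egfr, a receptor that also activates Stat3, and its ligands, Tgfa (at least 7.34) and Hbegf (at least 5.42) were higher, Egf was lower at −5.66, and Egfr, itself a normalizer, was not called at 0.69. The list median was 3.05. In the list of the MAPK and PI3K branches that gp130 also feeds, Mapk3, Rhoa and Rac1 were, like Il6st and Stat3, detected in DS arrays alone, with bounds of 15.47 for Mapk3, 10.37 for Rhoa and 6.00 for Rac1. Of the cytokines that induce Il6 and colony stimulating factors in fibroblasts, Il1b was higher by at least 10.61, and Tnf had no CT in any array.

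The list of 7 genes known as induced by Il6 or Stat3 signalling, or taken as its targets, did not move 1 way beside Stat3. Ptgs2, the inducible cyclooxygenase, was higher by 14.20 (SE 0.48) with a CT in all 6 arrays, and Fga (at least 3.51), Mmp2 (at least 6.30) and Mmp9 (at least 7.41) were higher as well. Vegfa, an angiogenic growth factor with a CT in all 6 arrays, was lower at −11.81 (SE 0.89), and Hgf was lower at a bound of −5.28. Timp1 was not detected. The list median was 4.90, near the 4.40 of the 64.

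Of 17 cell type marker genes 10 were tested, and 9 were called higher in DS, as Stat3, Il6st, Csf3 and Csf2 were, and 1 lower, beside 71.9% and 20.3% of all tested genes. The fibroblast collagens Col1a1, Col1a2 and Col3a1 were not detected in the control arrays, and neither were Actb, B2m, Gapdh and Gusb, which all cells use, so a missing CT there cannot be read as a missing transcript. Col5a2, another fibroblast collagen, was detected in all 6 arrays and had the earliest CT of the 5 fibroblast genes, and Col5a1 was detected in none. Added over the list, ratios from assays of unequal efficiency came to 97.9, 78.8 and 117 in control and 518, 620 and 804 in DS. Of 3 smooth muscle genes Tagln alone was detected, in DS arrays alone, at a ratio of 75630, 321249 and 208545, and Acta2 and Actc1 were not detected. Of 3 epithelial genes Itgb6 alone was detected, again in DS arrays alone, at 1235503, 1683851 and 1514070, and Cdh1 and Itga6 were not. These large ratios rest on very early CT in the DS arrays, 10.04, 9.61 and 9.77 for Itgb6 and 14.07, 12.0 and 12.63 for Tagln. Whether such CT reflect transcript levels was not tested. Lymphocyte genes summed to 2.09, 1.26 and 2.40 in control and 151, 628 and 180 in DS, a sum that Ifng dominates. Cd40lg was higher by at least 4.09, Il4 went the other way, with a CT in the control arrays alone, and Il2 was not detected. Of the macrophage genes Il1b alone was detected, at 16.6, 39.2 and 41.6 in DS. The part of these markers in the values of Stat3, Il6st, Csf3 and Csf2 was not tested.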

How the data were processed

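RNA from 3 control and 3 DS cultures, labelled as biological triplicates, was measured on 1 SYBR Green PCR array each. The authors exported CT with Rotor-Gene Q Series Software 2.3.1 and deposited it per well without normalization. The authors also deposited a ratio per group, which equals 2 to the power of the mean −ΔCT with a geometric mean of the normalizing CT and was used only as the authors' value. Later or missing CT were replaced by 36, and each array was normalized to the arithmetic mean of Hsp90ab1, Ccl7 and Egfr. Of 84 wound healing genes, the 64 that reached 36 or earlier in any array were fitted with lmFit and eBayes of limma 3.58.1 in R 4.3.3, two-sided, with Benjamini-Hochberg adjustment over the 64 and a threshold of 0.05. The fit was tested on simulated data without a cutoff and with equal spread in both groups. That test does not cover genes set to the cutoff in a whole group, as Il6st, Stat3, Csf3 and Csf2 were. No pair of arrays shared a CT in any gene assay. The number of arrays limits the precision. Members and lists were chosen with earlier results of these data known. Named are the 5 genes, the pathway and cell type marker lists, the control, housekeeping and normalizing assays, and the 3 genes nearest in CT to each detected gene; the nearest genes over the DS arrays were an alternative. Some genes that this rule names are not reported here. Alternatives were other normalizers, cutoffs of 35 and 40, other filters, the methods' own test, a replicate block and leaving out each array.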

Additional observations from a re-analysis of the deposited data

Results flagged for a closer look

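Signals outside the gene comparison differed between the groups in 4 control wells, in 3 of them with an earlier CT in DS. The genomic DNA control had a mean CT of 33.6 in the DS arrays and no CT in a control array. The reverse transcription control in the first of its wells had a mean CT of 29.6 over the DS arrays, where no control array gave one. The same assay in the third of its wells had a mean CT of 32.1 in the DS arrays, while 1 control array gave a CT, at 38.0, over the cutoff. The second of its wells went the other way, with a mean CT of 22.5 in the control arrays and, in the DS arrays, 39.7, none and 41.0, all over the cutoff. The part of these signals in the values of Il6st, Stat3, Csf2 and Csf3 was not tested.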

How the results depend on the processing

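With the 5 housekeeping genes as normalizers, 17 genes were called higher and 39 lower, against 46 and 13, with Il6st at −1.13, Csf3 at −2.48 and Csf2 at −4.63; 4 of the 5 were set to the cutoff in control arrays, so these are no measured reversals. Only genes detected in all 6 arrays gave 8 higher and 6 lower of 16 tested, and no value for the 5 genes. The methods' own test gave 36 higher without adjustment, Stat3 among them, and 27 with Benjamini-Hochberg adjustment, where Stat3 at 16.67 was no longer called (adjusted p = 0.0709; limma adjusted p over the alternatives 4.13e-10 to 4.78e-06, without the replicate block and Hsp90ab1 alone, whose estimated prior was infinite). The cause was not tested. In the other 16 alternatives that gave values, Il6st, Stat3, Csf3 and Csf2 were higher and called. The control values of these genes were the cutoff in each of them. This agreement, and the narrow ranges on leaving out arrays, therefore add no support of their own. The cutoff sets the bounds: Csf3 was at least 4.14 at a cutoff of 35 and 9.14 at 40, where Il6 was tested and not called (−0.47, limma adjusted p = 0.342). With a replicate block, 45 genes were higher and 13 lower and no call of Il6st, Stat3, Csf3 or Csf2 changed. Over 17 assays, same-numbered arrays had correlations of deviations of 0.0832, 0.0506 and −0.199. Arrays of unlike number ranged from −0.337 to 0.358. With so few arrays and assays, these values cannot show whether the numbers pair the cultures. Leaving out each array gave 44 to 46 genes higher, 13 lower, Stat3 from 15.98 to 17.01, Il6st from 6.32 to 6.74, Csf3 from 5.00 to 5.30 and Csf2 from 2.92 to 3.04.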
